A study of Mus musculus with 14 samples.

Results

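Growth and neurotrophic factors were examined as 10 genes chosen by name, out of 31507 genes in the deposited expression table: Tgfb1, Fgf1, Fgf2, Vegfa, Hbegf, Igf1, Cntf, Bdnf, Ntf3 and the receptor gene Ntrk2. All 10 were found in the table, and 9 passed the filter for testing. The study applied m6A sequencing to mouse brain tissue: fragments of poly(A) RNA bound by an antibody to N6-methyladenosine (IP) were sequenced next to fragments that had not been selected (input). The sham group had a sham operation (3 samples), the ICH group received autologous blood as a model of intracerebral haemorrhage (2 samples), and the acupuncture group was, per the series' design text, haemorrhage mice given acupuncture at the GV20 point over 7 consecutive days (2 samples). Each sample gave 1 IP and 1 input library, 14 libraries in all. Strain, sex, age, brain region, the side of the lesion and any handling of the ICH group that matched acupuncture are not given in the sources used here. Nor do the labels say that replicates were separate animals, so p-values measure only the spread between these samples, which may be technical.

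Growth factors are secreted or membrane-bound proteins that act on neighbouring cells through receptor kinases or cytokine receptors. In the brain, the neurotrophins and ciliary neurotrophic factor act on neurons and glia, while transforming growth factor beta, the fibroblast growth factors and vascular endothelial growth factor are known for their parts in glial reaction, scar formation and the growth of vessels. N6-methyladenosine, or m6A, is a methyl mark on adenosines of messenger RNA that is bound by reader proteins and lies most often around stop codons and in 3′ untranslated regions.

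Gene levels were given as FPKM (fragments per kilobase of transcript, scaled to sequencing depth) for the 7 input libraries, whose totals ran from 179810 to 198472 FPKM. Read depth is unknown, since FPKM gives no counts. ICH replicate 2 stood apart from the other libraries, at -45.22 on the second principal component, where the other 6 lay between 0.98 and 18.35. The 2 ICH libraries correlated at 0.942 across genes, beside 0.983 to 0.988 within sham and 0.976 within acupuncture. Because ICH and acupuncture were both compared with the same 3 sham libraries, those comparisons are not independent of each other.

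Against sham, Tgfb1 and Fgf2 rose and Vegfa fell in both haemorrhage groups, and Cntf rose in the acupuncture group. Bdnf, Igf1, Fgf1, Hbegf and Ntrk2 did not pass the test in any comparison. A gene was called when limma's test on log2(FPKM + 1) gave a Benjamini-Hochberg adjusted p under 0.05 over all 13666 tested genes, that is, those with a mean of at least 1 FPKM. In ICH against sham, 2 of the 9 tested genes rose, beside 4.95% of all tested genes, and 1 fell, beside 0.724%. In acupuncture against sham, 3 rose, beside 8.47% of all tested genes, and 1 fell, beside 3.22%. With both haemorrhage groups joined against sham, 3 rose, beside 6.71%, and 1 fell, beside 1.51%. In acupuncture against ICH, 0 of 9 rose, beside 0.0366% of all tested genes, and 0 fell, beside 0.0%. For that comparison, limma's unadjusted p was under 0.05 for 1 of the 9 genes and for 20.2% of all tested genes. The median log2 fold change of the 9 genes was 0.19 in ICH against sham, 0.11 in acupuncture against sham and -0.10 in acupuncture against ICH, beside -0.01, 0.04 and 0.05 over all tested genes. The call counts moved with single libraries: without ICH replicate 1, limma called 5 of the 9 genes and 5204 genes in all in ICH against sham, and 2 of the 9 and 5098 in all in acupuncture against ICH, with 1 ICH library left that is assumed to vary like the other groups. All 4 calls among the 10 genes in acupuncture against sham were lost without acupuncture replicate 1, which leaves 1 acupuncture library, with adjusted p in limma of 0.0514 for Fgf2, 0.0516 for Tgfb1, 0.0719 for Vegfa and 0.0739 for Cntf, while their log2 fold changes were 0.76, 1.40, -0.68 and 1.07. Tgfb1, Fgf2, Cntf and Igf1 had sham means below 1 FPKM and entered the test through their levels in the haemorrhage groups, so these counts are a description of the genes that passed the filter. Fold changes are on the log2(FPKM + 1) scale, which understates the change of such low genes.

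**Figure D1:**
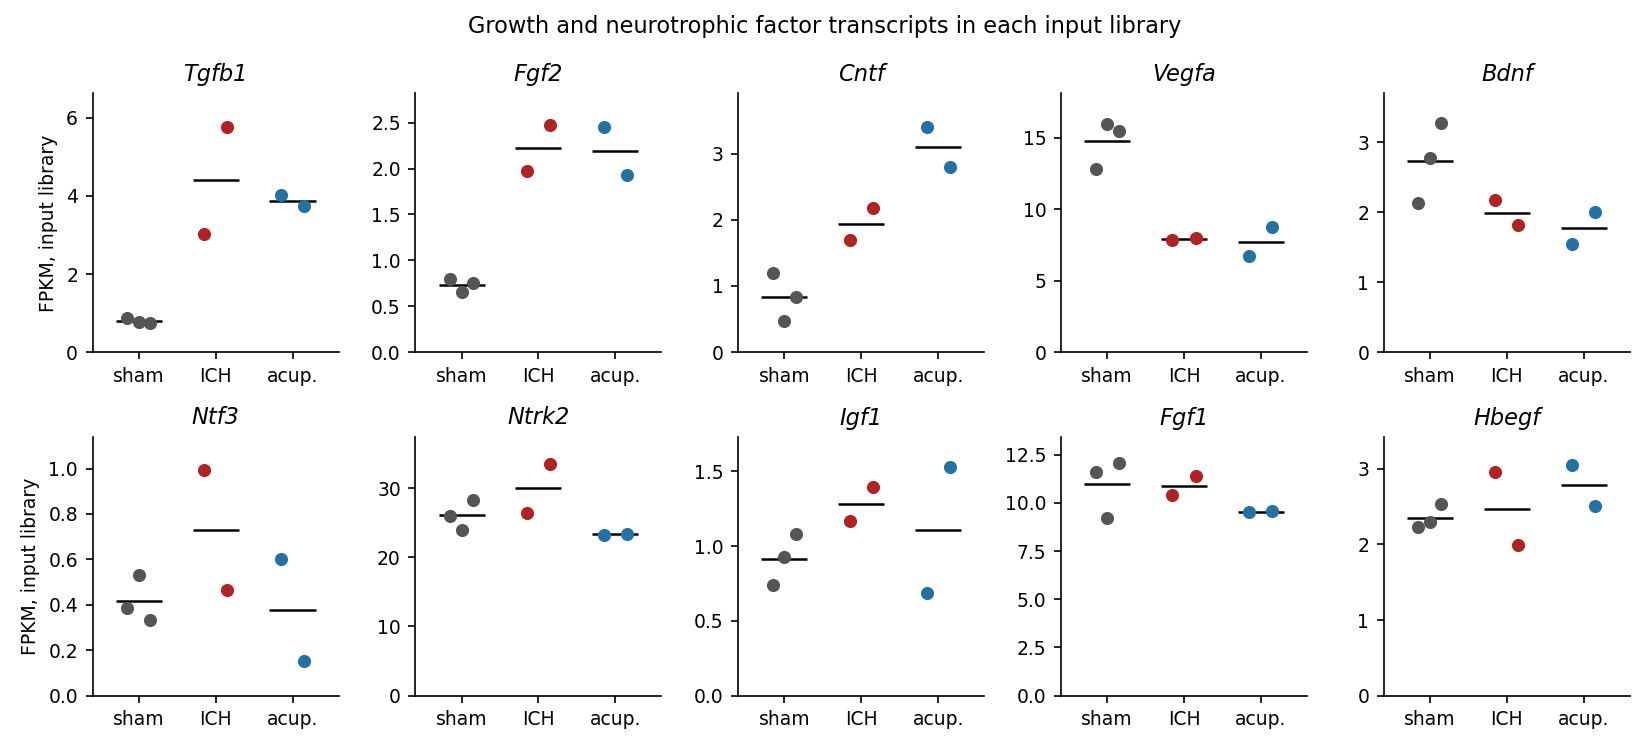
FPKM of the 10 genes in each input library (points; 3 sham, 2 ICH, 2 acupuncture), with the group mean as a horizontal line and each vertical axis starting at 0. Tgfb1 and Fgf2 are higher and Vegfa is lower in all 4 haemorrhage libraries than in any sham library, while Ntf3 stays below 1 FPKM in every library.

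**Figure D2:**
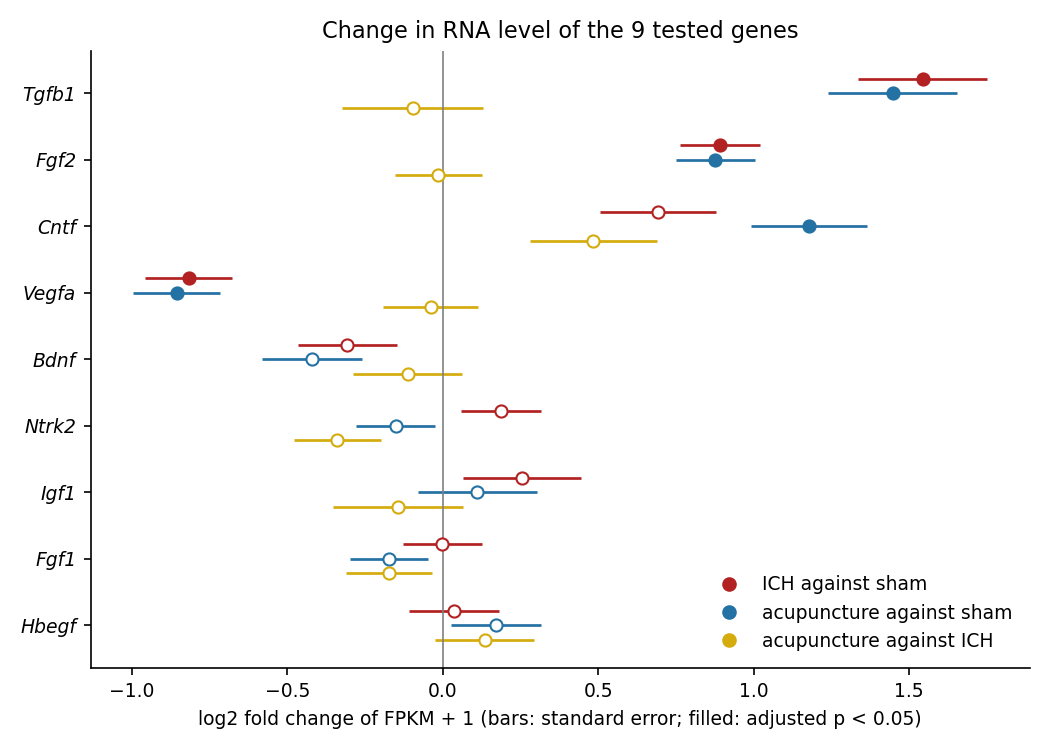
log2 fold changes of FPKM + 1 for the 9 tested genes with their standard errors, from the limma fit over all genes; filled points passed an adjusted p of 0.05. Tgfb1, Fgf2 and Vegfa are filled in both comparisons with sham and Cntf in acupuncture against sham, and all points of acupuncture against ICH are open.

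The sequences just upstream of 3 genes that changed, Tgfb1 and Cntf upward and Vegfa downward, are shown to let their promoters be compared. They are the 250 bases before the RefSeq start on GRCm38.p6, read 5′ to 3′ on the gene's own strand: chr7:25686752-25687001 on the plus strand for Tgfb1, chr19:12765633-12765882 on the minus strand for Cntf and chr17:46032378-46032627 on the minus strand for Vegfa. Capitals mark GGGCGG, the core of a GC box, searched on both strands, so that it reads CCGCCC where it lies on the other strand. RefSeq's promoter table held windows for 8 of the 10 genes. The window of Fgf2 is not printed, since the RefSeq start of that gene lies 131 bp inside its annotated span.
Tgfb1: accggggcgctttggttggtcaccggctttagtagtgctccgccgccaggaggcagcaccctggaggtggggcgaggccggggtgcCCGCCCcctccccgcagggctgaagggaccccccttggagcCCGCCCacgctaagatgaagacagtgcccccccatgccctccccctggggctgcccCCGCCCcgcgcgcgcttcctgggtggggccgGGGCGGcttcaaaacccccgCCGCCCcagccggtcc
Cntf: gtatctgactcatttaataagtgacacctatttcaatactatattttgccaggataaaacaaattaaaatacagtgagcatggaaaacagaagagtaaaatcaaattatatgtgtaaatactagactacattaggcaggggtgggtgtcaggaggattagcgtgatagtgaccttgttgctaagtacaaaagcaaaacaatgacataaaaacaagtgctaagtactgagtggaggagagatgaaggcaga
Vegfa: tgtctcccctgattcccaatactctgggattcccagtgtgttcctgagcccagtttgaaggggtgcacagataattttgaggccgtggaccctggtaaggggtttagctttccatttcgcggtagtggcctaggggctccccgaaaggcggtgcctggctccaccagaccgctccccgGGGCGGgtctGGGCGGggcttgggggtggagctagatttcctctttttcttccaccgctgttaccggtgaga
The Tgfb1 stretch holds 5 such matches, 1 on the gene's strand and 4 on the other. The Vegfa stretch holds 2, both on the gene's strand, and the Cntf stretch holds 0. Of 32817 stretches of this length in the RefSeq table, 32.7% hold at least 1 match. A match is a string of letters and not a measured binding site.

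Tgfb1 (ENSMUSG00000002603; chromosome 7, 25687002 to 25705077, plus strand) encodes transforming growth factor beta 1, a cytokine secreted in a latent form that signals through a pair of receptor kinases and Smad proteins. It was at 0.875, 0.763 and 0.740 FPKM in the 3 sham libraries, at 3.03 and 5.77 FPKM in the 2 ICH libraries and at 4.03 and 3.74 FPKM in the 2 acupuncture libraries. Every haemorrhage library lay above every sham library, and the ICH libraries lay on either side of the acupuncture libraries. The mean was 0.793 ± 0.0723 FPKM in sham (SD, n = 3), 4.40 ± 1.94 FPKM in ICH (SD, n = 2) and 3.88 ± 0.205 FPKM in acupuncture (SD, n = 2). Tgfb1 rose by 1.54 on the log2 scale in ICH (SE 0.207, limma adjusted p = 0.00691) and by 1.45 in acupuncture (SE 0.207, limma adjusted p = 0.00552). The difference between acupuncture and ICH was -0.10 (SE 0.227, limma adjusted p = 0.806). Without ICH replicate 1 it was -0.47 and passed limma's test (adjusted p = 0.0247).

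Other genes of the TGF-beta pathway were counted from a list of 22 activators, receptors, Smads and targets, of which 20 were tested. In ICH 6 rose and 0 fell, and in acupuncture 6 rose and 0 fell, with a median log2 fold change of 0.24 and 0.09. Those that rose in ICH included the receptor genes Tgfbr1 and Tgfbr2, Nrros, Thbs1 and Tgfbi; in acupuncture they included Tgfbr2, Eng, Nrros, Thbs1 and Tgfbi. Tgfbi, an extracellular matrix protein induced by TGF-beta, was at 1.001 to 1.38 FPKM in sham, 10.3 and 12.7 FPKM in ICH and 27.5 and 23.0 FPKM in acupuncture. Nrros, which anchors latent TGF-beta 1 on microglia, was at 0.747 to 0.863 FPKM in sham, 1.95 and 1.78 FPKM in ICH and 2.84 and 2.26 FPKM in acupuncture. For Tgfbi and Nrros no haemorrhage library overlapped with sham, and both acupuncture libraries lay above both ICH libraries, though no gene of the list was called in acupuncture against ICH. The limma log2 fold changes in acupuncture against sham were 3.60 for Tgfbi (adjusted p = 3.33e-05) and 0.96 for Nrros (0.00266).

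Fgf2 (ENSMUSG00000037225; chromosome 3, 37348346 to 37410108, plus strand) encodes basic fibroblast growth factor, a mitogen of glia and vessels that leaves cells without a signal peptide. It was at 0.793, 0.651 and 0.757 FPKM in sham, 1.98 and 2.47 FPKM in ICH and 2.46 and 1.93 FPKM in acupuncture. All 4 haemorrhage libraries lay above the sham libraries, and the haemorrhage groups overlapped with each other. Fgf2 rose by 0.89 on the log2 scale in ICH (SE 0.128, limma adjusted p = 0.00918) and by 0.88 in acupuncture (SE 0.128, limma adjusted p = 0.00600). Between the haemorrhage groups the log2 difference was -0.01 (SE 0.140, limma adjusted p = 0.957). The 3′ part of Fgf2 overlaps with Nudt6 on the opposite strand over 5199 bp. The counting is not stated to use strand, so reads of these genes may not have been told apart there. Nudt6 itself was listed at 0.402 to 0.865 FPKM over the 7 libraries.

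Fgf1 (ENSMUSG00000036585; chromosome 18, 38838673 to 38929472, minus strand) encodes acidic fibroblast growth factor, which binds all fibroblast growth factor receptors. It was at 11.6, 9.21 and 12.1 FPKM in sham, 10.4 and 11.4 FPKM in ICH and 9.51 and 9.59 FPKM in acupuncture. The sham range covered all 4 haemorrhage libraries, and both acupuncture libraries lay below both ICH libraries. Its log2 fold change was -0.001 in ICH against sham (SE 0.126, limma adjusted p = 0.996) and -0.17 in acupuncture against sham (SE 0.126, limma adjusted p = 0.460). The acupuncture to ICH difference was -0.17 (SE 0.138, limma adjusted p = 0.463). By FPKM, Fgf1 stood above Fgf2 in every library.

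Of 24 other FGF family genes, receptors and feedback genes, 19 were tested. In ICH 1 rose and 0 fell, and in acupuncture 3 rose and 1 fell. Fgfrl1, a receptor-like protein that lacks a kinase domain, was at 3.96 to 4.67 FPKM in sham, 10.7 and 7.35 FPKM in ICH and 12.4 and 10.1 FPKM in acupuncture. Fgfbp1, a carrier that releases FGF from the matrix, was at 0.422 to 0.464 FPKM in sham, 1.23 and 1.04 FPKM in ICH and 1.78 and 2.59 FPKM in acupuncture. Sdc4, a heparan sulphate proteoglycan that binds FGF, was at 14.3 to 19.6 FPKM in sham, 34.9 and 16.8 FPKM in ICH and 50.1 and 35.7 FPKM in acupuncture. For Fgfrl1 and Fgfbp1 all haemorrhage libraries lay above sham, whereas ICH replicate 2 lay within the sham range for Sdc4. The gene that fell in acupuncture was Fgfr2, a receptor (-0.40, limma adjusted p = 0.0472).

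Vegfa (ENSMUSG00000023951; chromosome 17, 46016993 to 46032369, minus strand) encodes vascular endothelial growth factor A, which drives the growth and leakiness of vessels. It was at 12.8, 16.0 and 15.5 FPKM in sham, 7.82 and 8.03 FPKM in ICH and 6.72 and 8.77 FPKM in acupuncture. No haemorrhage library reached the sham range, and the acupuncture libraries lay on either side of the ICH libraries. Its mean FPKM fell by 46.4% in ICH. In acupuncture it fell by 47.6%. The log2 fold change was -0.82 in ICH (SE 0.140, limma adjusted p = 0.0192) and -0.85 in acupuncture (SE 0.140, limma adjusted p = 0.00949), and the acupuncture to ICH difference was -0.04 (SE 0.153, limma adjusted p = 0.887). The ICH call did not pass limma's test without sham replicate 2 (adjusted p = 0.0755), sham replicate 3 (0.0836) or ICH replicate 2 (0.0568), or without the filter on low values (0.0535).

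None of the 5 tested genes of the 9 other VEGF ligands and receptors was called in limma's test of any comparison. Flt1, a VEGF receptor of endothelium, was at 3.79 to 4.29 FPKM in sham, 4.86 and 5.20 FPKM in ICH and 4.44 and 4.22 FPKM in acupuncture. The co-receptor Nrp1 was at 1.49 to 1.89 FPKM in sham, 2.85 and 2.24 FPKM in ICH and 1.75 and 1.93 FPKM in acupuncture. Nrp2, the related co-receptor, was at 2.72 to 4.64 FPKM in sham, 4.17 and 4.36 FPKM in ICH and 2.97 and 3.55 FPKM in acupuncture. Both ICH libraries lay above sham for Flt1 and Nrp1 and within the sham range for Nrp2, and acupuncture overlapped with sham in all 3.

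Hbegf (ENSMUSG00000024486; chromosome 18, 36504927 to 36515805, minus strand) encodes heparin-binding EGF-like growth factor, which is made as a membrane protein and shed by metalloproteases to bind the EGF receptor. It was at 2.23, 2.29 and 2.54 FPKM in sham, 2.96 and 1.99 FPKM in ICH and 3.06 and 2.51 FPKM in acupuncture. The 3 groups overlapped, with the ICH libraries above and below the sham range. The log2 fold change was 0.04 in ICH (SE 0.145, limma adjusted p = 0.888) and 0.17 in acupuncture (SE 0.145, limma adjusted p = 0.532).

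Of 17 other EGF family ligands, receptors and sheddases, 9 were tested, of which 2 rose and 0 fell in ICH, and 2 rose and 2 fell in acupuncture. Adam17, a sheddase of EGF receptor ligands, was at 2.16 to 2.43 FPKM in sham, 3.93 and 3.96 FPKM in ICH and 4.50 and 4.81 FPKM in acupuncture. Cd9, a tetraspanin that associates with the membrane form of the Hbegf protein, was at 18.8 to 18.9 FPKM in sham, 43.4 and 26.3 FPKM in ICH and 50.0 and 38.8 FPKM in acupuncture. Tgfa, transforming growth factor alpha, another ligand of the EGF receptor, was at 6.36 to 7.18 FPKM in sham, 5.67 and 6.51 FPKM in ICH and 4.23 and 4.35 FPKM in acupuncture. Adam17 rose in both groups, whereas Cd9 (limma adjusted p = 0.0133) and Tgfa (0.0117) passed in acupuncture against sham. The receptor gene Erbb4 also fell in acupuncture (-0.62, limma adjusted p = 0.0238), and Adam10 rose in ICH (0.45, limma adjusted p = 0.0275).

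Igf1 (ENSMUSG00000020053; chromosome 10, 87858265 to 87937042, plus strand) encodes insulin-like growth factor 1, a survival factor for neurons and for myelin-forming cells. It was at 0.740, 0.926 and 1.08 FPKM in sham, 1.17 and 1.40 FPKM in ICH and 0.686 and 1.53 FPKM in acupuncture. Both ICH libraries lay just above the sham range, while the acupuncture libraries lay below and above it. Its log2 fold change was 0.25 in ICH (SE 0.191, limma adjusted p = 0.444) and 0.11 in acupuncture (SE 0.191, limma adjusted p = 0.781), and the latter turned to -0.18 without acupuncture replicate 2 and to -0.10 with quantile normalization.

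Among 13 other IGF family genes, receptors and binding proteins, 12 were tested, and 2 rose in ICH and 3 in acupuncture, all of them genes of binding proteins. Igfbp7 was at 9.37 to 13.2 FPKM in sham, 28.5 and 52.9 FPKM in ICH and 59.8 and 52.0 FPKM in acupuncture. Igfbp2 was at 12.6 to 14.3 FPKM in sham, 29.7 and 17.5 FPKM in ICH and 42.6 and 33.9 FPKM in acupuncture. Igfbp3 was at 2.10 to 2.48 FPKM in sham, 4.94 and 5.45 FPKM in ICH and 8.57 and 5.10 FPKM in acupuncture. All 3 lay above sham in every haemorrhage library. The limma log2 fold changes in acupuncture were 2.26 for Igfbp7 (adjusted p = 0.00217), 1.44 for Igfbp2 (0.00659) and 1.201 for Igfbp3 (0.00763).

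Cntf (ENSMUSG00000079415; chromosome 19, 12763660 to 12765632, minus strand) encodes ciliary neurotrophic factor, a cytokine of the interleukin-6 family that is made by astrocytes and signals through gp130 and Stat3. It was at 1.19, 0.474 and 0.836 FPKM in sham, 1.69 and 2.18 FPKM in ICH and 3.41 and 2.80 FPKM in acupuncture. The groups did not overlap with each other, in the order sham, ICH, acupuncture. Cntf rose by 1.18 on the log2 scale in acupuncture against sham (SE 0.186, limma adjusted p = 0.00829), from a mean of 0.833 ± 0.358 FPKM (SD, n = 3) to 3.10 ± 0.430 FPKM (SD, n = 2). The value for ICH against sham was 0.69 and did not pass (SE 0.186, limma adjusted p = 0.0927), though it did without ICH replicate 1 (0.81, limma adjusted p = 0.0387), and neither did the acupuncture to ICH difference of 0.48 (SE 0.204, limma adjusted p = 0.248). With the haemorrhage groups joined, Cntf rose by 0.93 (SE 0.200, limma adjusted p = 0.0275), a call lost without the filter on low values (0.0745) and without sham replicate 2 (0.104), sham replicate 3 (0.101), acupuncture replicate 1 (0.0649) or acupuncture replicate 2 (0.0752). The gene lies wholly inside a longer Zfp91 model on the same strand that is listed at 0 FPKM in all 7 libraries, so reads from a joint transcript could not be told apart from Cntf.

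Of 11 other genes of CNTF receptors, related cytokines and targets, 6 were tested, and the same 3 rose in both haemorrhage groups: Socs3, Stat3 and Osmr. Socs3, a feedback inhibitor induced by Stat3, was at 0.807 to 1.12 FPKM in sham, 5.71 and 3.55 FPKM in ICH and 11.8 and 8.36 FPKM in acupuncture. Stat3, the transcription factor of the pathway, was at 3.94 to 4.71 FPKM in sham, 8.58 and 7.32 FPKM in ICH and 10.9 and 9.30 FPKM in acupuncture. Osmr, the oncostatin M receptor subunit, which also stands in the list of reactive astrocyte markers, was at 0.152 to 0.379 FPKM in sham, 1.95 and 3.35 FPKM in ICH and 2.00 and 2.08 FPKM in acupuncture. Every haemorrhage library lay above sham for all 3 genes. The limma log2 fold changes in acupuncture against sham were 2.48 for Socs3 (adjusted p = 0.000541), 1.07 for Stat3 (0.00176) and 1.27 for Osmr (0.00556).

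Bdnf (ENSMUSG00000048482; chromosome 2, 109674700 to 109727007, plus strand) encodes brain-derived neurotrophic factor, made mainly by excitatory neurons and bound by the receptor TrkB. It was at 2.13, 2.78 and 3.27 FPKM in sham, 2.18 and 1.81 FPKM in ICH and 1.54 and 2.01 FPKM in acupuncture. The acupuncture libraries lay below all sham libraries, and the ICH libraries overlapped with sham. The log2 fold change was -0.42 in acupuncture (SE 0.160, limma adjusted p = 0.157) and -0.31 in ICH (SE 0.160, limma adjusted p = 0.302), and neither passed the test.

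Ntf3 (ENSMUSG00000049107; chromosome 6, 126101412 to 126166910, minus strand), the gene of neurotrophin 3, was the lowest of the 10 and was not tested, with a mean of 0.495 FPKM over the 7 libraries. It was at 0.387, 0.533 and 0.333 FPKM in sham, 0.993 and 0.464 FPKM in ICH and 0.602 and 0.155 FPKM in acupuncture. The groups overlapped, and the libraries of each haemorrhage group differed from each other more than the sham libraries did.

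Ntrk2 (ENSMUSG00000055254; chromosome 13, 58806569 to 59133970, plus strand) encodes TrkB, the receptor of the Bdnf protein, which occurs with its kinase in neurons and in truncated forms in astrocytes. The gene value does not separate these forms. Ntrk2 was the most abundant of the 10 per length in every library, at 25.9, 24.0 and 28.2 FPKM in sham, 26.4 and 33.5 FPKM in ICH and 23.2 and 23.4 FPKM in acupuncture. Both acupuncture libraries lay below all other libraries, and ICH replicate 2 lay above all others. The acupuncture to ICH difference of -0.34 on the log2 scale was the 1 value of that comparison with an unadjusted limma p under 0.05, and it did not pass after adjustment (SE 0.140, limma adjusted p = 0.241). Without ICH replicate 1 it was -0.50 and passed (limma adjusted p = 0.0153), as did ICH against sham at 0.35 (limma adjusted p = 0.0370), while the value for ICH against sham with both ICH libraries was 0.19 (limma adjusted p = 0.405).

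Of 12 other neurotrophin family genes, receptors and processing enzymes, 9 were tested, and limma called 0 in ICH and 2, both higher, in acupuncture, each against sham. Furin, a protease that matures pro-neurotrophins, was at 2.81 to 3.07 FPKM in sham, 3.59 and 3.11 FPKM in ICH and 4.22 and 4.53 FPKM in acupuncture. Mmp9, a secreted protease that can cleave proBDNF, was at 0.265 to 0.375 FPKM in sham, 1.27 and 1.25 FPKM in ICH and 2.55 and 1.41 FPKM in acupuncture. The haemorrhage libraries lay above sham for both genes. Ntrk3, the receptor of neurotrophin 3, was at 4.55 to 4.92 FPKM in sham, 4.36 and 4.91 FPKM in ICH and 3.49 and 4.15 FPKM in acupuncture. Its log2 difference of -0.26 between acupuncture and sham missed the threshold (limma adjusted p = 0.175).

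Across the 7 lists, 80 of 108 related genes were tested. In ICH against sham 14 rose and 0 fell, in acupuncture against sham 19 rose and 3 fell, and in acupuncture against ICH limma called 0. The percentages of all tested genes are given above, and no test of the lists was made. Osmr, Mmp9 and Fgfbp1, with sham means of 0.268, 0.329 and 0.440 FPKM, were called and entered the test through their haemorrhage levels. The lists were also chosen with earlier results of these data known. These counts are therefore a description and do not show that the lists stand out.

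Markers of several cell types moved in the same samples. Of 6 microglia and macrophage markers, 5 rose against sham in each haemorrhage group while P2ry12 fell in acupuncture, and the summed level of the list was 41.9 to 48.7 FPKM in sham, 112 to 113 FPKM in ICH and 96.6 to 112 FPKM in acupuncture. All 6 reactive astrocyte markers rose, with sums of 34.3 to 40.5 FPKM in sham, 582 to 633 FPKM in ICH and 708 to 869 FPKM in acupuncture. Of these, Lcn2, Cd44 and Osmr had sham means of 0.645, 0.492 and 0.268 FPKM and entered the test through their haemorrhage levels. The marker counts are therefore a description, and the shares of all tested genes are given above. Of 6 genes listed for infiltrating monocytes and macrophages, the tested Lyz2 and Cd68 rose. The sum went from 12.3 to 15.1 FPKM in sham to 149 and 254.5 FPKM in ICH and 266 to 279 FPKM in acupuncture. Lyz2 alone was at 107 and 178 FPKM in ICH. Ccr2, Ms4a7, Mrc1 and Lyve1 averaged under 1 FPKM and were not tested. In ICH, Lyve1 overlapped with sham, while Ccr2, Ms4a7 and Mrc1 lay above it. Whether cells had infiltrated was not tested. Striatal neuron markers fell, 4 of 6 in ICH and 6 of 6 in acupuncture, with sums of 211 to 233 FPKM in sham, 89.3 to 126 FPKM in ICH and 70.7 to 94.7 FPKM in acupuncture, while none of the 6 markers of neurons in general was called by limma in either. Summed choroid plexus markers were at 2.09 FPKM in acupuncture replicate 2 and at 336 to 486 FPKM in the other libraries. Neutrophil markers summed to 7.28 to 9.71 FPKM in sham, 13.95 and 15.25 FPKM in ICH and 47.1 to 74.8 FPKM in acupuncture, and the defining genes Ly6g and Mpo were each listed above 0 in 1 library. The part of these cells in the changes of Tgfb1, Fgf2, Cntf and Vegfa was not tested. In bulk tissue such as this, fewer cells of a type and less RNA per cell cannot be told apart.

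For each of the 4 genes that were called, the tested genes with the most similar course over the 7 libraries were found by the root mean square difference of log2(FPKM + 1) after centring on the sham mean. For Tgfb1 they were Fxyd1 (0.0820), Lgmn (0.0883) and Nckap1l (0.105), and for Fgf2 they were Gstm1 (0.0484), Fli1 (0.0649) and Ifnar2 (0.0667). Cntf was nearest to AU021092 (0.113), Cd38 (0.124) and Rcn3 (0.132), and among the nearest to Vegfa were Actn2 (0.116) and Tfrc (0.142). The course of Fxyd1 was 10.7, 9.28 and 10.3 FPKM in sham, 25.0 and 39.4 FPKM in ICH and 30.3 and 31.9 FPKM in acupuncture, which follows Tgfb1 in the high value of ICH replicate 2. Tfrc was at 16.3, 16.4 and 16.6 FPKM in sham, 8.92 and 9.79 FPKM in ICH and 9.22 and 8.90 FPKM in acupuncture. These measures describe likeness in 7 libraries only, and on the log2(FPKM + 1) scale, which understates the change of low genes. A gene listed as near can therefore differ in its fold change of FPKM. The sham and ICH means were 0.73 and 2.22 FPKM for Fgf2, beside 68.2 and 127 FPKM for Gstm1. For Tgfb1 these means were 0.793 and 4.40 FPKM, beside 10.1 and 32.2 FPKM for Fxyd1.

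The m6A data were given as 1 peak list per group, with the authors' log2 ratio of IP over input and their p for each peak, so peaks have no spread between replicates. Peaks were listed on 9 of the 10 genes in every group, 36 in sham, 40 in ICH and 41 in acupuncture, and on Cntf in no group. Of the 9 tested genes, 8 had at least 1 peak in each group, beside 93.6% of all tested genes in sham, 94.3% in ICH and 94.0% in acupuncture. The median log2 ratio of peaks on the 10 genes was 1.022 in sham, 1.11 in ICH and 1.13 in acupuncture, beside 1.07, 1.24 and 1.12 over all peaks. Most were annotated to 3′ untranslated regions, 26 in sham, 27 in ICH and 30 in acupuncture. The matching share of all listed peaks is not given here, so this is not a trait of the 10 genes. Of the 36 sham peaks, 27 (75.0%) overlapped with an ICH peak of the gene by at least 1 bp on 1 strand, beside 79.9% of all sham peaks, and 27 (75.0%) with an acupuncture peak, beside 76.3%. Of the 40 ICH peaks, 31 (77.5%) overlapped with sham, beside 70.7% of all ICH peaks, and 37 (92.5%) with acupuncture, beside 74.3%. Of the 41 acupuncture peaks, 30 (73.2%) overlapped with sham, beside 74.7% of all acupuncture peaks, and 35 (85.4%) with ICH, beside 82.3%. Peaks found in 1 group only numbered 7 of 36 in sham (19.4%, beside 13.9% of all sham peaks), 2 of 40 in ICH (5.0%, beside 17.5%) and 3 of 41 in acupuncture (7.32%, beside 11.3%). The shares of the 10 genes were not tested against those of all peaks. Listed peaks spanned 100 to 75858 bp of the genome, with no statement in the labels on whether the long spans include introns.

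**Figure D3:**
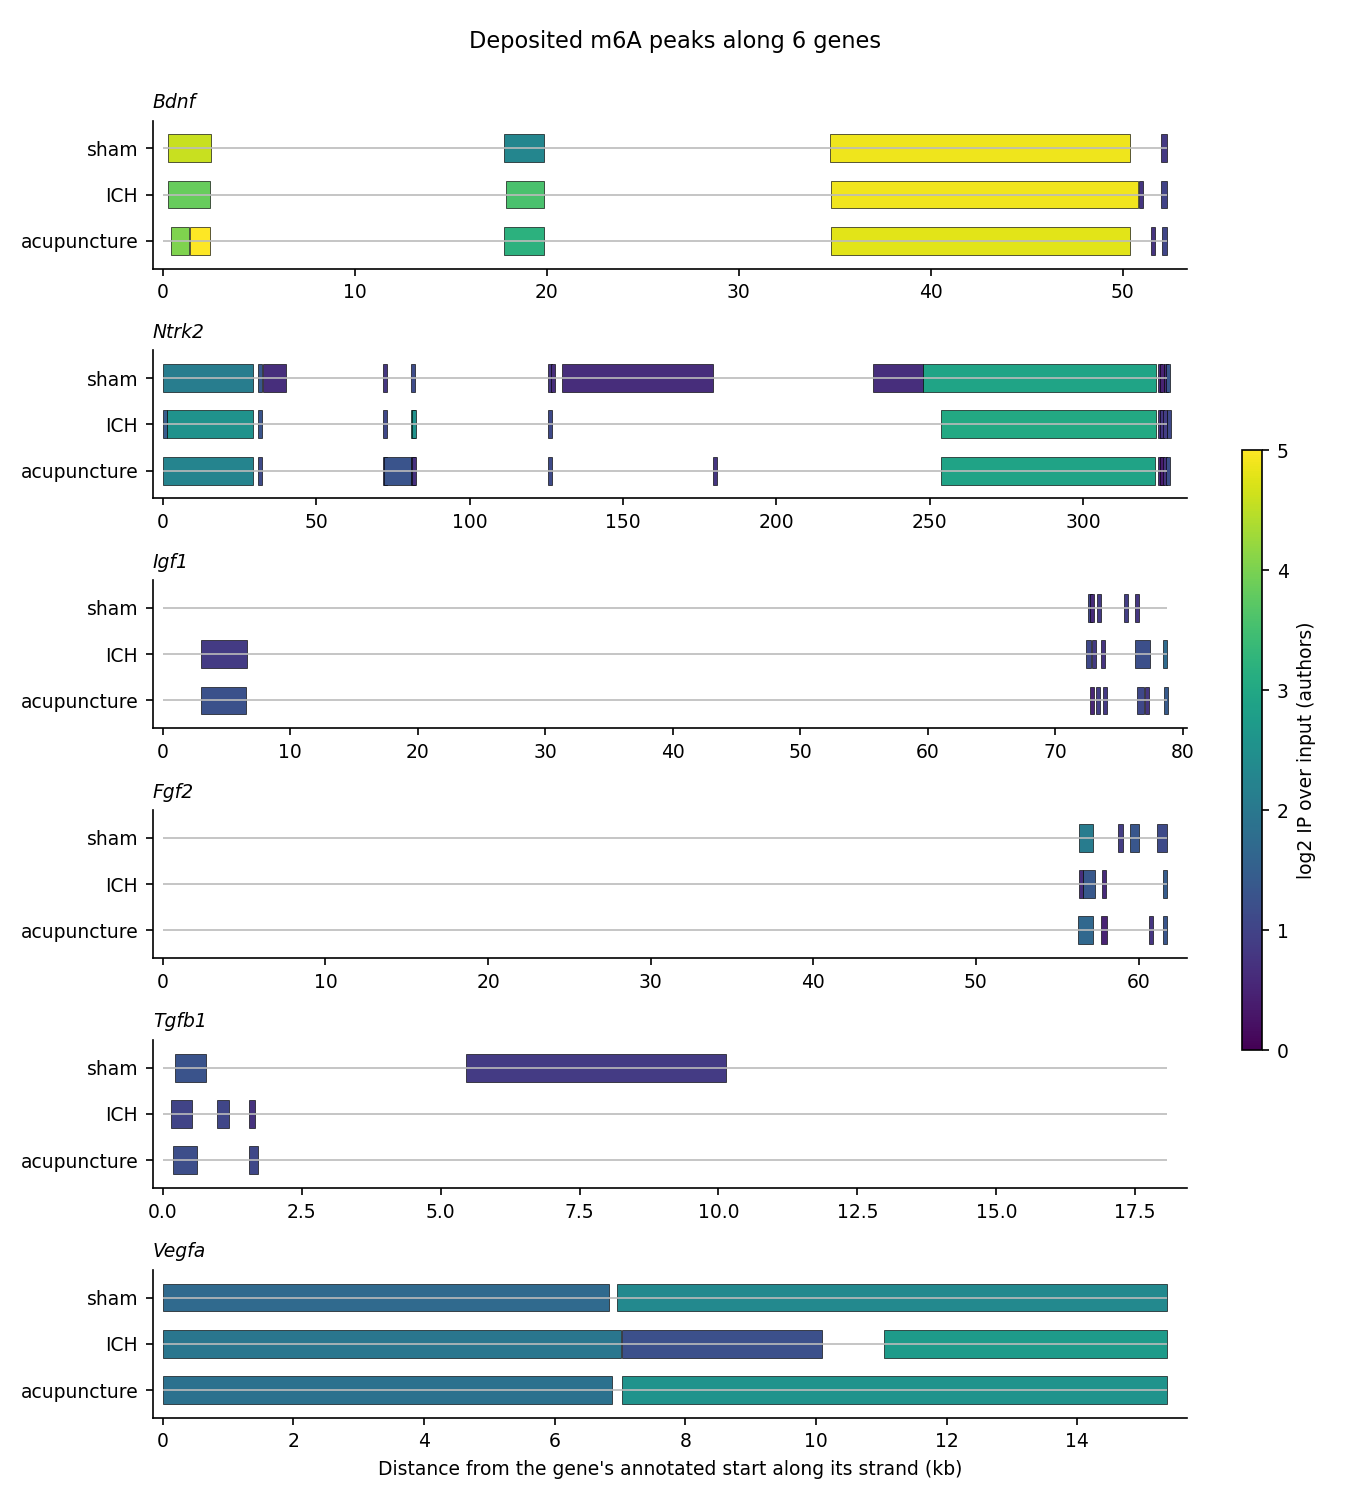
Deposited m6A peaks of 6 genes along the gene (distance from the annotated start in kb), 1 row per group, coloured by the authors' log2 IP over input from 0 to 5. The Bdnf peaks reach the highest ratios, and the Igf1, Fgf2 and Ntrk2 genes carry clusters of short peaks at their 3′ ends.

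The neurotrophin genes Bdnf and Ntf3 held the highest ratios of the 10 genes in each group. The main Bdnf peak, annotated to the 3′ untranslated region and starting 34.8 kb from the gene start, had a log2 ratio of 4.87 in sham, 4.89 in ICH and 4.78 in acupuncture. The single Ntf3 peak had 5.60 in sham, 4.83 in ICH and 5.204 in acupuncture, and spanned 96.8% to 97.0% of the gene. Ntf3 RNA in the input libraries was at 0.155 to 0.993 FPKM, the lowest of the 10 genes by mean. At the start of Bdnf, 1 peak had 4.58 in sham (2243 bp) and 1 had 3.84 in ICH (2218 bp), while the stretch is listed in acupuncture as 2 peaks with 4.03 (932 bp) and 5.00 (1011 bp). On Ntrk2 the long peak that lies before the short peaks at the 3′ end, 75858 bp in sham, 70071 bp in ICH and 69846 bp in acupuncture, had 2.91, 3.01 and 2.91. The short Ntrk2 peak at the very 3′ end had 1.34 in sham, 1.11 in ICH and 1.21 in acupuncture. These ratios belong to spans that each list sets for itself, so they are not a comparison between groups.

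Among peaks of at most 1000 bp, the highest on a gene often lay at different sites in the groups. For Fgf2 it had 2.07 in sham and 1.68 in acupuncture, in an exon, and 1.44 in ICH at the 3′ end. For Igf1 it had 1.73 in ICH and 1.39 in acupuncture at the 3′ end of the gene, and 1.06 in sham at another site of the 3′ untranslated region. For Hbegf it had 0.99 in sham and in ICH, at the 5′ end, and 0.79 in acupuncture in an intron. Tgfb1 had its highest in the 5′ untranslated region in sham (1.27) and acupuncture (1.19) and in an exon in ICH (1.05). For Ntrk2 it had 2.79 in ICH, at a peak of 125 bp that starts 80.92 kb from the gene start. In sham (1.34) and acupuncture (1.21) the highest on Ntrk2 lay at the very 3′ end. For Bdnf it had 0.83 in sham and 0.99 in ICH at the 3′ end, and 4.03 in acupuncture near the gene start. For Fgf1 it lay at the 3′ end in all groups but spanned 1000 bp in sham (1.54), 425 bp in ICH (2.11) and 500 bp in acupuncture (1.74). Over 1 common span of 500 bp at that site, the authors' deposited table gives the opposite order, 1.841 in sham and 1.496 in ICH.

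Of 7 RefSeq windows at Bdnf start sites, 2 hold GGACT, a common m6A motif, in their first 50 bases, and 1 of these matches lies inside a peak of all 3 groups. It is shown as the letters of the mark's motif within the main Bdnf peak. The 30 bases around it, at chr2:109722939-109722968 on the plus strand (GRCm38.p6), lie in the main Bdnf peak, with the motif in capitals.
Bdnf: cattcctcccaaGGACTatgctgctgactt
The motif was searched on the sense strand in the first 50 bases after each start, where 5.76% of 32817 windows hold it. Such a match does not show that this adenosine is methylated, and the rest of the peak was not searched.

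In the authors' deposited table of ICH against sham, 19 differential peaks lay on 9 of the 10 genes, 12 with a higher ratio in ICH, beside 78.7% of all 23124 listed peaks, and 7 with a lower one. The authors' deposited table of acupuncture against ICH listed 12 peaks on the genes, 4 higher, beside 18.7% of all 20948, and 8 lower. Acupuncture against sham gave 17 such peaks in the authors' deposited table, 10 higher, beside 58.2% of all 17242, and 7 lower. An adjusted p under 0.05 by the authors' deposited table held for 18, 6 and 12 of these peaks. The matching share of all listed peaks is not given here, nor is the share of all genes with a differential peak. These counts therefore do not set the 10 genes apart. The median difference in the authors' deposited table for ICH against sham was 0.25 on the 10 genes and 0.56 over all peaks. For acupuncture against ICH these medians of the authors' deposited table were -0.22 and -0.46, and for acupuncture against sham 0.18 and 0.24.

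Tgfb1, whose RNA rose, had a differential peak of 400 bp in the 5′ untranslated region in 2 of the 3 comparisons. In ICH against sham its log2 ratio in the authors' deposited table was 1.37 in sham and 0.53 in ICH, a difference of -0.84 (adjusted p = 0.000263). In acupuncture against ICH, a nearly coincident peak had 0.58 in ICH and 1.32 in acupuncture, a difference of 0.74 (adjusted p = 5.89e-06 in the authors' deposited table). The ratio at the start of Tgfb1 was thus lower in ICH in both comparisons, whereas Tgfb1 RNA was higher in ICH than in sham and did not pass between ICH and acupuncture. No Tgfb1 peak is listed in the authors' deposited table of acupuncture against sham.

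Fgf2, which also rose in RNA, had lower ratios at all 5 peaks listed against sham. In ICH the authors' deposited table gave 0.61 against 1.85 in sham at 1 exonic peak (difference -1.24, adjusted p = 0.0271) and 1.36 against 2.07 at a peak in the 3′ untranslated region (-0.71, adjusted p = 0.00690). In acupuncture the differences in the authors' deposited table were -0.51 (adjusted p = 0.0757), -1.35 (0.0367) and -0.82 (0.102). Between the haemorrhage groups, 1 Fgf2 peak was higher in acupuncture by 0.44 in the authors' deposited table (adjusted p = 0.0686). The listed Fgf2 peaks lie from 56.25 kb to the gene's end, and all but the exonic stretch before 37404910 lie where Nudt6 runs on the other strand.

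Cntf was in no peak list but had 1 differential peak of 150 bp near its 3′ end, at 1.79 in sham and 0.12 in acupuncture in the authors' deposited table (difference -1.67, adjusted p = 0.00955). Cntf RNA in sham was at 0.474 to 1.19 FPKM, so the sham ratio rests on a low input level. Vegfa, whose RNA fell, had higher ratios at all 4 peaks listed against sham, all of them long. The differences in the authors' deposited table were 0.28 and 0.13 in ICH (adjusted p = 0.0145 and 0.0158) and 0.25 and 0.18 in acupuncture (adjusted p = 0.0452 and 0.000547).

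**Figure D4:**
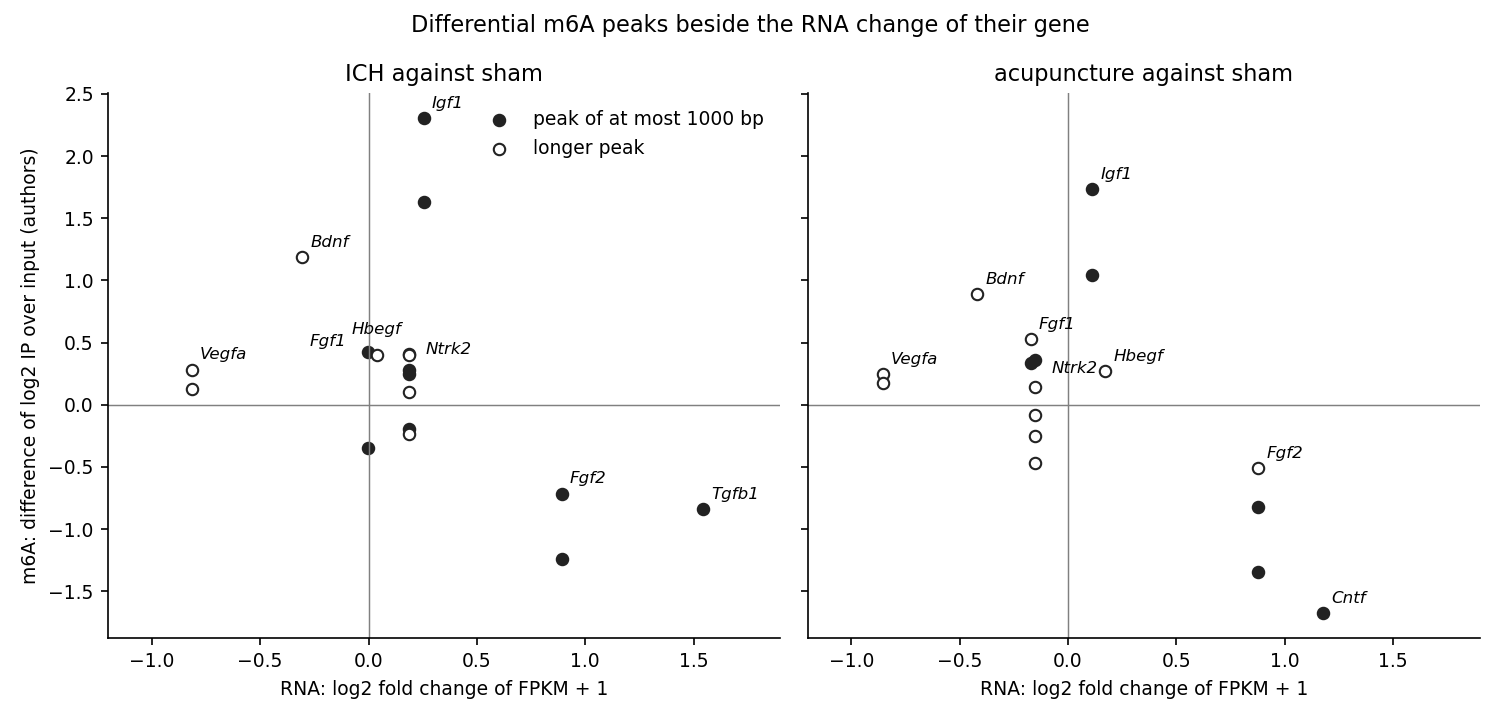
Authors' difference in log2 IP over input of each listed differential peak (vertical axis) against the limma log2 fold change of its gene's RNA (horizontal axis), for ICH against sham (left) and acupuncture against sham (right); filled points are peaks of at most 1000 bp and open points longer ones. Peaks of Tgfb1, Fgf2 and Cntf, with higher RNA, lie below 0, and peaks of Vegfa, with lower RNA, lie above 0.

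The ratio of IP over input and the RNA level share the input libraries, and the part of this in the opposite signs was not tested. Over all genes, the share of listed peaks with a higher ratio in ICH than in sham was 73.8% for genes whose RNA rose, 88.2% for genes whose RNA fell and 80.1% for genes not called, by the authors' deposited table. In acupuncture against sham these shares in the authors' deposited table were 51.2%, 66.2% and 59.9%. The 4 called genes were not tested against these shares.

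Of the listed peaks on the 10 genes, the largest difference from sham was on Igf1, whose RNA was not called. Its peak of 200 bp at the 3′ end of the gene had a log2 ratio of -0.43 in sham and 1.87 in ICH in the authors' deposited table, a difference of 2.30 (adjusted p = 1.15e-05). At an overlapping peak of 225 bp the authors' deposited table of acupuncture against sham gave -0.37 and 1.36, a difference of 1.73 (adjusted p = 0.00369). An earlier stretch of the same untranslated region was also higher, by 1.63 in ICH (adjusted p = 0.00584) and by 1.04 in acupuncture (adjusted p = 0.0395), in the authors' deposited table. The 3′-end peak is listed in ICH and acupuncture and not in sham, and Igf1 RNA was at 0.686 to 1.53 FPKM over all libraries.

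Bdnf had a higher ratio at a peak 17.8 kb from its start, annotated to a 5′ untranslated region, with 2.26 in sham and 3.45 in ICH in the authors' deposited table (difference 1.19, adjusted p = 0.00360). In acupuncture it had 3.15, a difference of 0.89 (adjusted p = 0.0697) by the authors' deposited table. The main Bdnf peak was listed between acupuncture and ICH alone, with a difference of -0.21 (adjusted p = 0.0573 in the authors' deposited table), and a short peak at the 3′ end with -0.84 (adjusted p = 0.123). Ntf3 had 1 differential peak, at 5.59 in sham and 4.77 in ICH in the authors' deposited table (difference -0.82, adjusted p = 0.00376).

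Hbegf, whose RNA did not pass, had the largest difference between the haemorrhage groups. At its 5′ untranslated region the authors' deposited table gave 1.63 in ICH and -0.19 in acupuncture, a difference of -1.82 (adjusted p = 0.000567), and the peak there is listed in sham and ICH but not in acupuncture. Its long 3′ peak was higher than in sham by 0.40 in ICH (adjusted p = 9.59e-05) and by 0.27 in acupuncture (adjusted p = 0.0180) in the authors' deposited table. For Fgf1, which did not pass in RNA, the authors' deposited table gave 5 differential peaks in its 3′ untranslated region, 4 higher and 1 lower. The differences there were 0.42 (adjusted p = 0.000208) and, at the 3′ end, -0.35 (0.000254) in ICH against sham. They were 0.53 (adjusted p = 0.0255) and 0.34 (0.00446) in acupuncture against sham and 0.23 (0.0159) in acupuncture against ICH, by the authors' deposited table.

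Ntrk2 carried the most peaks, 14 in sham, 12 in ICH and 13 in acupuncture, and 17 of the differential peaks, 8 higher and 9 lower, by the authors' deposited table. One peak of 400 bp, 126 kb from the gene start, is annotated to the 3′ untranslated region of a transcript model that ends within the gene (ENSMUST00000109838). Its ratio was 0.72 in sham and 0.998 in ICH (difference 0.28, adjusted p = 5.34e-05) in the authors' deposited table, and 0.73 in sham and 1.09 in acupuncture (difference 0.36, adjusted p = 6.17e-07). By contrast, the long peak before the short 3′-end peaks differed from sham by 0.10 in ICH (adjusted p = 0.00377) in the authors' deposited table. In acupuncture it differed by -0.09 (adjusted p = 0.0581 in the authors' deposited table). The peak over the first 29.4 kb was higher than in sham by 0.40 in ICH (adjusted p = 1.20e-08) and lower in acupuncture than in ICH by -0.22 (adjusted p = 0.00719), by the authors' deposited table. A peak of 49149 bp from 130.24 kb was lower than in sham by -0.23 in ICH (adjusted p = 0.00286), and its counterpart by -0.47 in acupuncture (adjusted p = 6.10e-07), in the authors' deposited table. The largest difference on Ntrk2 was -0.92, at a peak 80.7 kb from the start in acupuncture against ICH (adjusted p = 0.0386 in the authors' deposited table). The remaining Ntrk2 differences in the authors' deposited table lay between -0.31 and 0.41.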

How the data were processed

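The authors deposited FPKM per gene for input libraries, per the file headers. The 7 columns of labelled samples were used and 2 columns that match no sample were not. Columns named control and EA were taken for sham and acupuncture because no other group remained, and by number. Peak lists (1 per group) and differential tables hold the authors' log2 IP over input per peak and their p-value and adjusted p-value, per the file headers. All listed peaks have a p under 0.05 or no p. Whether the unused samples entered these lists, and whether counting used strand, could not be learned from the sources. Tools named in the submitters' processing notes, with no role, are fastp, HISAT2, HOMER, StringTie and edgeR. These notes also name the human builds GRCh38 and hg38, but the files hold mouse Ensembl identifiers. All 10 genes matched RefSeq GRCm38.p6 in chromosome, with starts within 132 bp and ends within 138 bp, and positions are stated on GRCm38.

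Of 31507 genes, 13666 averaged 1 FPKM or more over the 7 libraries. These were tested two-sided on log2(FPKM + 1) in 1 fit of 3 group means with a mean-variance trend (limma 3.58.1, R 4.3.3) and Benjamini-Hochberg adjustment; a further fit joined ICH and acupuncture. The code was tested on simulated data. The 10 genes and the lists of related genes and markers were chosen with earlier results of these data known. From each list, the 3 genes with the smallest p in acupuncture against sham are given with values, and other called genes by name; some genes that these rules select are not reported here. Described peaks are the highest of at most 1000 bp per gene and the differential ones, some of Ntrk2 by range. Some further peaks of Bdnf, Ntf3 and Ntrk2 are described as well. Tables and figures used Python 3.11.15, pandas 2.3.3, numpy 2.4.6 and matplotlib 3.10.9. Alternatives changed the pseudocount, filter, scaling, trend, replicate block, groups in the fit and peak thresholds, and left out each library.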

Additional observations from a re-analysis of the deposited data

How the results depend on the processing

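Depth is unknown, each haemorrhage group has 2 libraries, and peaks have no replicate values. The calls of Tgfb1, Fgf2 and Vegfa with the haemorrhage groups joined held in every alternative run. The report names the libraries and settings that ended a call, except the replicate block. Whether shared numbers pair the samples was not settled. Deviations of same-numbered samples from their group means correlated at -0.0149 to 0.0941. In a group of 2 libraries the deviations mirror each other, and samples of unlike number were not compared. With the replicate block, 1 of the 10 genes was called in ICH against sham, where limma's adjusted p was 0.0653 for Vegfa and 0.0799 for Fgf2. Fgf2 was at 0.0548 in acupuncture against sham, Cntf at 0.150 with the groups joined, and Fgf1 turned to 0.0666 in ICH against sham. The block fit called 351 genes in all in ICH against sham, 3 in acupuncture against ICH, 750 in acupuncture against sham and 463 with the groups joined, beside 776, 5, 1598 and 1123 without it. A fit with only the 2 groups compared called 2 in acupuncture against ICH and 3207 in acupuncture against sham. Quantile normalization moved the median of the genes to -0.10 in acupuncture against sham, with Igf1 at -0.10 there, and Fgf1 to 0.00876 and Hbegf to -0.0391 in ICH against sham. On the TPM scale Ntrk2 turned to -0.0361 with the groups joined. The cause of these moves was not tested.

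Leaving out 1 library gave 2 to 5 called among the 10 genes and 392 to 5204 in all in ICH against sham, with a median of 0.13 to 0.33. In acupuncture against ICH it gave 0 to 2, 2 to 5098 in all, and a median of -0.18 to 0.00938. In acupuncture against sham it gave 0 to 4, 775 to 3197 in all, and a median of -0.16 to 0.17. With the groups joined it gave 3 to 4, 591 to 2104 in all, and a median of 0.06 to 0.14. Signs turned for differences that had not been called. In ICH against sham Fgf1 ran from -0.11 to 0.0666, positive without sham replicate 1 (0.0409), sham replicate 3 or ICH replicate 1 (0.0597), and Hbegf from -0.17 without ICH replicate 1 to 0.24. In acupuncture against ICH, leaving out ICH replicate 2 turned Fgf2 (0.0964), Hbegf (-0.0678 to 0.34) and Tgfb1 (-0.47 to 0.28). Leaving out acupuncture replicate 1 turned Vegfa (-0.21 to 0.13), Igf1 (-0.44 to 0.15) and Bdnf (-0.23 to 0.00938), and leaving out acupuncture replicate 2 turned Fgf2 (-0.13 to 0.10). Igf1 against sham ran from -0.18 without acupuncture replicate 2 to 0.40. With the groups joined Ntrk2 ran from -0.0935 without ICH replicate 2 to 0.0767, and was -0.0370 without sham replicate 2.

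A stricter rule asked for an adjusted p under 0.05 and a log2 ratio of at least 1. It kept 18 peaks on the 10 genes in sham, 25 in ICH and 25 in acupuncture. A span of at most 1000 bp held for 23 in sham and 26 in ICH. The matching shares of all listed peaks are not given for these counts or the next ones, so they do not set the 10 genes apart. The median log2 ratio over all peaks was 1.065 in sham, 1.244 in ICH and 1.118 in acupuncture. Of the differential peaks in the authors' deposited tables, 4 in ICH against sham, 1 in acupuncture against ICH and 4 in acupuncture against sham had an adjusted p under 0.05 and a difference of at least 1. An adjusted p under 0.05 alone left 6 in acupuncture against ICH, and a span of at most 1000 bp left 11, 6 and 7.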
